A study of Rattus norvegicus with 12 samples.

Results

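Late repression describes 338 array probes whose signal was about level between 2 conditioned media after 6 h and lower by at least 1 log2 unit in alpha-synuclein medium after 24 h. They were drawn from 22523 probes on Illumina bead arrays, or 1.5% of the array. The 12 arrays measured total RNA of primary rat microglia, the macrophages of the brain grown in culture, in 4 groups of 3. At 24 h and at 6 h the cells were kept either in aSCM, medium taken from the differentiated neuroblastoma line SH-SY5Y, of human origin, overexpressing human alpha-synuclein, or in LZCM, medium of the same line making beta-galactosidase from LacZ. Both media came from cells infected with adenoviral vectors at a multiplicity of infection of 100, were serum-free, were conditioned for 18 h and were given as a 5-fold concentrate. All 4 groups therefore share infected donor cells, serum-free medium and the concentration step, and microglia without conditioned medium were not analysed here. The labels name no transgene or genotype of the microglia and do not tell if the 3 samples per group are separate cultures, animals or medium preparations, so p-values measure only a spread between samples that may be technical.

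The members were chosen on quantile-normalized log2 signals, with no background correction, as probes with a mean difference between aSCM and LZCM (aSCM minus LZCM) under 0.5 in size at 6 h and of -1 or lower at 24 h. The levels at both times and both differences chose the probes, so these values are given below as a description, without a test. On the whole array 2.99% of probes were at -1 or lower at 24 h. Of the 338 probes, 247 had a gene name, standing for 244 genes, and 91 had none in the annotation used. All 338 were above background on all 3 LZCM arrays at 24 h and passed the filter on dim probes, which kept 12351 of the 22523. A probe that has to fall this far cannot lie in the background of both media, and 199 of the members (58.9%) lay in the top quartile of mean signal on the array and 139 (41.1%) in the next quartile. In 24 of them the aSCM signal at 24 h was not above background on any of 3 arrays.

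Microglia survey brain tissue and clear debris, lipid and dying cells. Toll-like receptor 2, the receptor named in the study's title, is a surface receptor of the innate immune system that signals through NF-kB to inflammatory genes in macrophages and microglia. Primary microglial cultures are usually shaken off mixed glial cultures, in which astrocytes, cells of the oligodendrocyte lineage and fibroblast-like cells also grow. Late repression is thus read below in groups by gene role: lipid and iron handling, immune genes, cell division, and genes best known from neurons, other glia and connective tissue. The role groups were made by hand after the members were known, and they hold 126 of the probes, for 124 genes.

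The 12 arrays had 10871 to 11443 probes above background each, and arrays of 1 group correlated at 0.996 to 0.998 while the 2 media at 1 time correlated at 0.961 to 0.965. All 12 microglial defining markers that were measured, among them Aif1 and Tyrobp, were above background on all 12 arrays. Markers of astrocytes, oligodendrocytes, neurons and fibroblasts were also above background, and their values are given below. In bulk RNA, fewer cells of a type and less RNA per cell cannot be told apart.

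Over the 338 probes the median difference at 24 h was -1.35 log2 units, from -3.62 in Pnlip to -1.001 in Mfap4, and the median difference at 6 h was -0.17, from -0.50 to 0.50. All 338 had every aSCM array below every LZCM array at 24 h, as 19.8% of all probes had. At 6 h the difference was below 0 in 240 of them, against 11312 of all 22523 probes and 6436 of the 12351 tested. The members thus leaned to a lower signal in aSCM at 6 h already, within the limit of the rule. Values beside the thresholds were close together. C1qb at -0.9987 and Tmpo at -0.9967 lay just outside the 24 h threshold, and Mfap4 at -1.001 and Dlgap4 at -1.004 just inside. At 6 h, Col1a2 at -0.4982 and Nedd4 at -0.492 were just inside the lower threshold, and Snurf at -0.5028 and Padi2 at -0.5054 just outside. At the upper 6 h threshold, Chst10 at 0.4976 and Mgll at 0.4927 were inside, and Prnp at 0.5171 and Klf9 at 0.5312 outside.

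A lower signal in aSCM at 24 h can arise because the signal fell in aSCM, because it rose in LZCM, or both. The rule fixes only that the change over time in aSCM lies at least 0.5 below that in LZCM, and the split between the media was open. Each change was read from a limma fit of all 12 arrays, and a probe was called at a Benjamini-Hochberg adjusted p under 0.05 over all tested probes. The fit rests on the arrays that chose the members, so the calls describe them and are no independent evidence.

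Between 6 h and 24 h, 262 of the 338 probes were called lower in aSCM, against 29.1% of all tested probes, and 265 were called higher in LZCM, against 19.9%. The calls overlapped in 189 probes, which both fell in aSCM and rose in LZCM, against 5.13% of all tested probes. A further 73 fell in aSCM without a rise in LZCM, and 76 rose in LZCM without a fall in aSCM. Calls the other way were 16 higher in aSCM (33.3% of tested probes) and 27 lower in LZCM (19.8%). The median change (24 h minus 6 h) was -0.68 in aSCM, from -4.03 to 0.88, and 0.735 in LZCM, from -1.67 to 2.21. All 12 probes of lipid and iron genes and all 12 of immune genes fell in aSCM, where 262 of all 338 members did. In LZCM 15 of 16 probes of matrix genes rose, as did 21 of 22 of neuronal structure, synapse and secretion. There 19 of 20 of adhesion and guidance and 11 of 12 of neural transcription factors rose too. The 12 of 15 probes of glial genes that rose in LZCM were near the share of all members, 265 of 338.

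**Figure D1:**
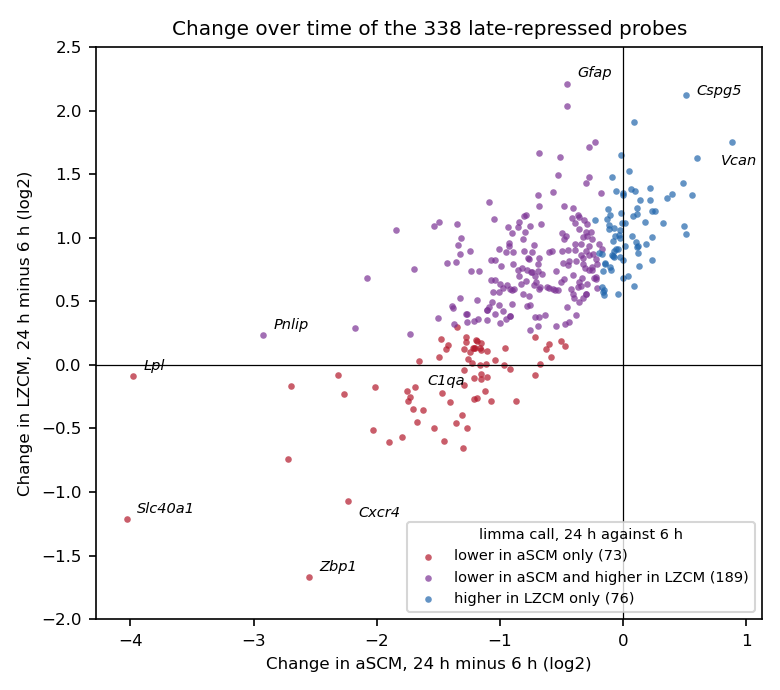
Each point is 1 of the 338 late-repressed probes, placed by its log2 change from 6 h to 24 h in aSCM (horizontal axis) and in LZCM (vertical axis), with colour for the limma calls. Of the 338 probes, 189 fell in aSCM and rose in LZCM, 73 fell in aSCM without a rise in LZCM, and 76 rose in LZCM without a fall in aSCM.

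The 73 probes with a fall in aSCM alone had a median change of -1.28 in aSCM and -0.08 in LZCM, and 27 of them were also lower over time in LZCM. The 189 with both had medians of -0.69 and 0.75. The 76 with a rise in LZCM alone had medians of -0.00024 and 1.05, and 16 of them were called higher over time in aSCM. These 76 were sorted by having no called fall in aSCM, so their small median change there is partly set by the sorting. The larger of the 2 changes was the fall in aSCM for 157 of the 338 probes. For comparison, 189 probes late-induced by the mirrored rule had medians of 0.95 in aSCM and -0.32 in LZCM, and 132 probes lower by at least 1 at both times had -0.11 and -0.07. The differences between these sets were not tested.

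**Figure D2:**
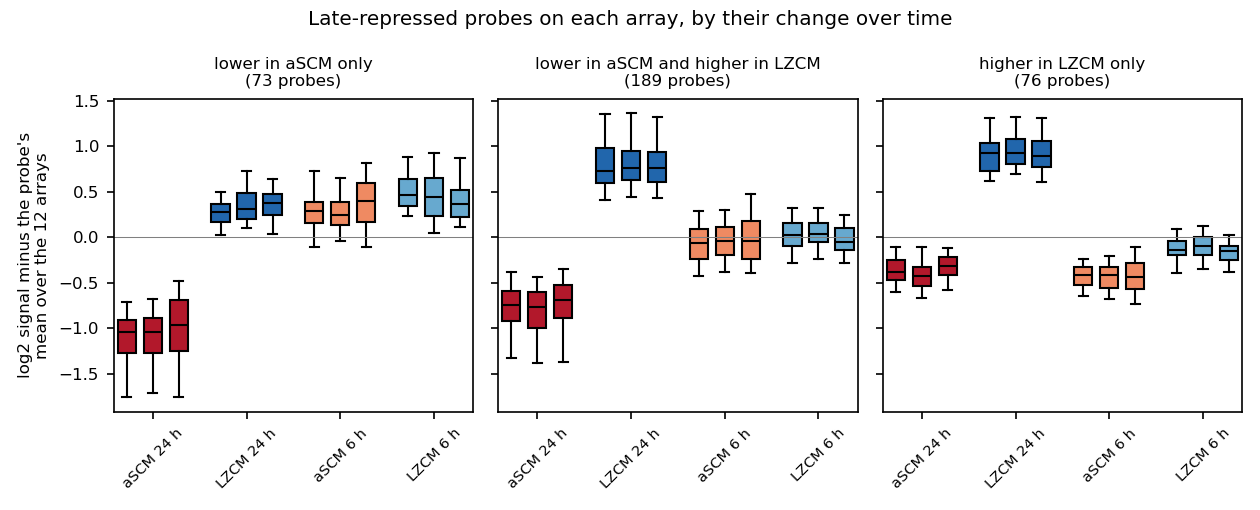
Boxes show, for each of the 12 arrays, the log2 signal of the late-repressed probes minus the probe's own mean over all arrays (line: median, box: quartiles, whiskers: 5th to 95th percentile), in 3 panels for the 73, 189 and 76 probes of each pattern over time. In the left panel the 3 aSCM 24 h arrays stand below the other 9, in the right panel the 3 LZCM 24 h arrays stand above the other 9, and the middle panel has both.

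Genes for lipid and iron handling made up 12 probes, and all 12 fell over time in aSCM (29.1% of all tested probes), while 3 rose and 3 fell in LZCM. Their median change was -1.19 in aSCM and 0.13 in LZCM. Lpl, lipoprotein lipase, which frees fatty acids from circulating triglyceride, had log2 signals of 10.47, 10.65 and 10.28 in aSCM and 13.81, 14.17 and 14.05 in LZCM at 24 h. At 6 h it had 14.46, 14.42 and 14.45 in aSCM and 14.14, 14.08 and 14.08 in LZCM. The 3 aSCM arrays at 24 h stood apart from the other 9, which lay between 13.81 and 14.46. Lpl was 11.6-fold lower in aSCM at 24 h, and it fell by 3.98 (SE 0.09) over time in aSCM with an adjusted p of 2.4e-16 by limma, while its change in LZCM was -0.09 (adjusted p 0.48).

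Slc40a1, ferroportin, had 9.80, 10.10 and 9.86 in aSCM and 12.67, 12.81 and 12.86 in LZCM at 24 h, and at 6 h 13.87, 14.02 and 13.96 in aSCM and 14.01, 13.97 and 14.01 in LZCM. It fell in both media, with changes of -4.03 (SE 0.08) in aSCM, the largest fall among the members, and -1.21 in LZCM, and at 6 h the media overlapped. Pnlip, the symbol of pancreatic triglyceride lipase, had the lowest difference of all members at -3.62, or 12.3-fold. It read 8.71, 8.77 and 8.74 in aSCM and 12.30, 12.44 and 12.34 in LZCM at 24 h, and 11.70, 11.73 and 11.56 in aSCM and 12.14, 12.24 and 12.02 in LZCM at 6 h. Its change over time was -2.92 in aSCM (adjusted p 4.4e-16 by limma) and 0.23 in LZCM.

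Tf, transferrin, an iron carrier also made by oligodendrocytes, averaged 12.12 in aSCM and 14.09 in LZCM at 24 h and fell by 1.75 over time in aSCM. Fabp3, a fatty acid binding protein, fell by 1.47 and Mgll, monoacylglycerol lipase, by 1.42. Npc2, which moves cholesterol out of lysosomes, fell by 0.71 and Apoc1, an apolipoprotein, by 0.96. The member probe of Pltp, phospholipid transfer protein, fell by 0.63 in aSCM, while a second tested probe of the gene changed by 0.13 in aSCM and 0.34 in LZCM, so the 2 probes disagree on a fall. Acot1, an acyl-CoA thioesterase, was the exception in form: it was not above background in aSCM at 24 h, was at least 6.97-fold lower than in LZCM there, and rose by 2.03 over time in LZCM. Lcat, a cholesterol esterifying enzyme, likewise rose by 1.24 in LZCM and fell by 0.40 in aSCM. Of the wider list of 21 measured genes of lipid efflux and liver X receptor targets, 4 were members (Lpl, Apoc1, Pltp and Npc2). In that list 7 were lower and 9 higher in aSCM at 24 h, where 29.2% and 30.8% of tested probes were, with a median of 0.16 over the list and 0.03 over all tested probes. Of 17 measured genes of cholesterol synthesis only Dhcr7, the last enzyme of the pathway, was a member, at -1.11. In that list 10 were lower and 4 higher in aSCM at 24 h, and 8 were lower and 4 higher at 6 h.

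Immune and complement genes made up another 12 probes, and all 12 fell over time in aSCM, with a median of -1.51, the lowest of the 10 role groups. In LZCM 7 of the 12 fell as well and 2 rose, with a median of -0.26. C1qa, a chain of the first complement component and a marker of microglia, had 13.43, 13.41 and 13.49 in aSCM and 14.57, 14.61 and 14.66 in LZCM at 24 h. At 6 h it had 14.63, 14.57 and 14.58 in aSCM and 14.68, 14.82 and 14.68 in LZCM. It fell by 1.15 (SE 0.06, limma adjusted p 2.0e-11) in aSCM, and its change in LZCM was -0.11 (adjusted p 0.19).

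Fcgrt, the neonatal Fc receptor that spares antibody from breakdown, was 5.11-fold lower in aSCM at 24 h and fell by 1.73. Fcna, a ficolin of the lectin pathway of complement, fell by 1.48, Cfp, properdin, by 1.18, Cfd, complement factor D, by 1.10 and Serping1, the C1 inhibitor, by 1.21. Complement was thus represented by an initiator, 2 members of the alternative pathway, a lectin and an inhibitor. Cxcr4, the receptor of the chemokine CXCL12, and Zbp1, a sensor of Z-form nucleic acid induced by interferon, fell in both media: by 2.23 in aSCM and 1.07 in LZCM for Cxcr4, and by 2.55 in aSCM and 1.67 in LZCM for Zbp1. Cd83, a surface protein of activated antigen-presenting cells, fell by 1.73 in aSCM and 0.25 in LZCM.

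Of 26 measured genes of complement, Fc receptors and phagocytosis, 3 were members (C1qa, Cfp and Mfge8), and 11 of the 24 tested were lower and 8 higher in aSCM at 24 h. Among the 12 microglial defining markers C1qa was the only member, while 4 were lower and 4 higher. Spi1 (1.56) and Itgam (1.69) were higher in aSCM at 24 h, C1qb (-0.9987) was lower, and Aif1 (-0.09, adjusted p 0.21 by limma) and Tyrobp (adjusted p 0.99 by limma) did not pass the test. The summed linear signal of the 12 markers was 134579 to 137545 in aSCM and 165178 to 176391 in LZCM at 24 h, and 161743 to 167200 in aSCM and 185245 to 189638 in LZCM at 6 h. A second list held 18 measured genes of resting microglia, all tested, with Sparc as the only member. Of these, 12 were lower and 3 higher in aSCM at 24 h (29.2% and 30.8% of tested probes), with a median of -0.35. At 6 h, 13 were lower and 1 higher (32.2% and 25.9% of tested probes), with a median of -0.66. No member was among 44 measured NF-kB and inflammatory genes, of which 38 of 43 tested were higher in aSCM at 24 h and 41 at 6 h. None was among 13 of MHC class II, 25 of Toll-like receptor signalling or 33 of oxidative phosphorylation, and Zbp1 was the only one of 37 interferon genes.

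Lysosomal enzymes gave 3 members, which all fell over time in aSCM. Hexa, the alpha chain of beta-hexosaminidase, fell by 1.11, Dpp7, a dipeptidyl peptidase, by 1.15 and Man2b1, lysosomal alpha-mannosidase, by 1.07. Among 45 measured lysosomal genes (43 tested), 25 were lower and 11 higher in aSCM at 24 h, with a median of -0.34. Transforming growth factor beta and BMP genes gave 4. Pmepa1, a target and inhibitor of the pathway, had 12.11, 12.07 and 12.11 in aSCM and 13.70, 13.63 and 13.70 in LZCM at 24 h, and fell by 1.90 in aSCM and by 0.61 in LZCM. Smad7, the inhibitory SMAD, fell by 1.35 in aSCM and by 0.46 in LZCM. Tgfb2, a ligand, fell by 1.07 in aSCM and rose by 0.66 in LZCM, while Bmpr1a, a BMP receptor, rose by 0.68 in LZCM with a change of -0.0021 in aSCM. Among 24 listed and measured genes of these pathways (21 tested), 3 were members (Tgfb2, Smad7 and Bmpr1a). In that list 14 were lower and 3 higher in aSCM at 24 h, and 6 were lower and 9 higher at 6 h.

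Cell cycle genes made up 10 probes, of which 9 fell in aSCM and 6 rose in LZCM, with medians of -0.71 and 0.30. Mcm6, a subunit of the replicative helicase, had 10.51, 10.37 and 10.46 in aSCM and 11.78, 11.73 and 11.73 in LZCM at 24 h, and 10.82, 10.90 and 10.97 in aSCM and 11.23, 11.32 and 11.31 in LZCM at 6 h. The media did not overlap at either time. Mcm7, of the same helicase, fell by 0.75 in aSCM and rose by 0.27 in LZCM, and Pole, the catalytic chain of DNA polymerase epsilon, fell by 0.64 in aSCM and rose by 0.39 in LZCM. Pcna, the sliding clamp of DNA polymerase, had 13.03, 13 and 13.07 in aSCM and 14.06, 14.19 and 14.12 in LZCM at 24 h, and fell by 0.96 in aSCM with a change of 4.3e-05 in LZCM. Cdca7, a factor of dividing cells, fell by 1.07 in aSCM and rose by 0.82 in LZCM. Cdk4, a kinase of the G1 phase, was the 1 gene of the 10 without a fall in aSCM (0.09, adjusted p 0.39 by limma) and rose by 0.62 in LZCM.

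The members are a small share of the cell cycle genes that differed. Of 43 measured genes of DNA replication (41 tested), 37 were lower in aSCM at 24 h and 28 at 6 h (32.2% of tested probes at 6 h), with medians of -0.63 and -0.39, and 4 were members. Of 51 measured genes of mitosis, none was a member, and 44 of 47 tested were lower at 24 h and 42 at 6 h, with medians of -1.13 and -0.94. Mitosis genes were thus mostly lower at 6 h already, outside what the rule allows.

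**Figure D3:**
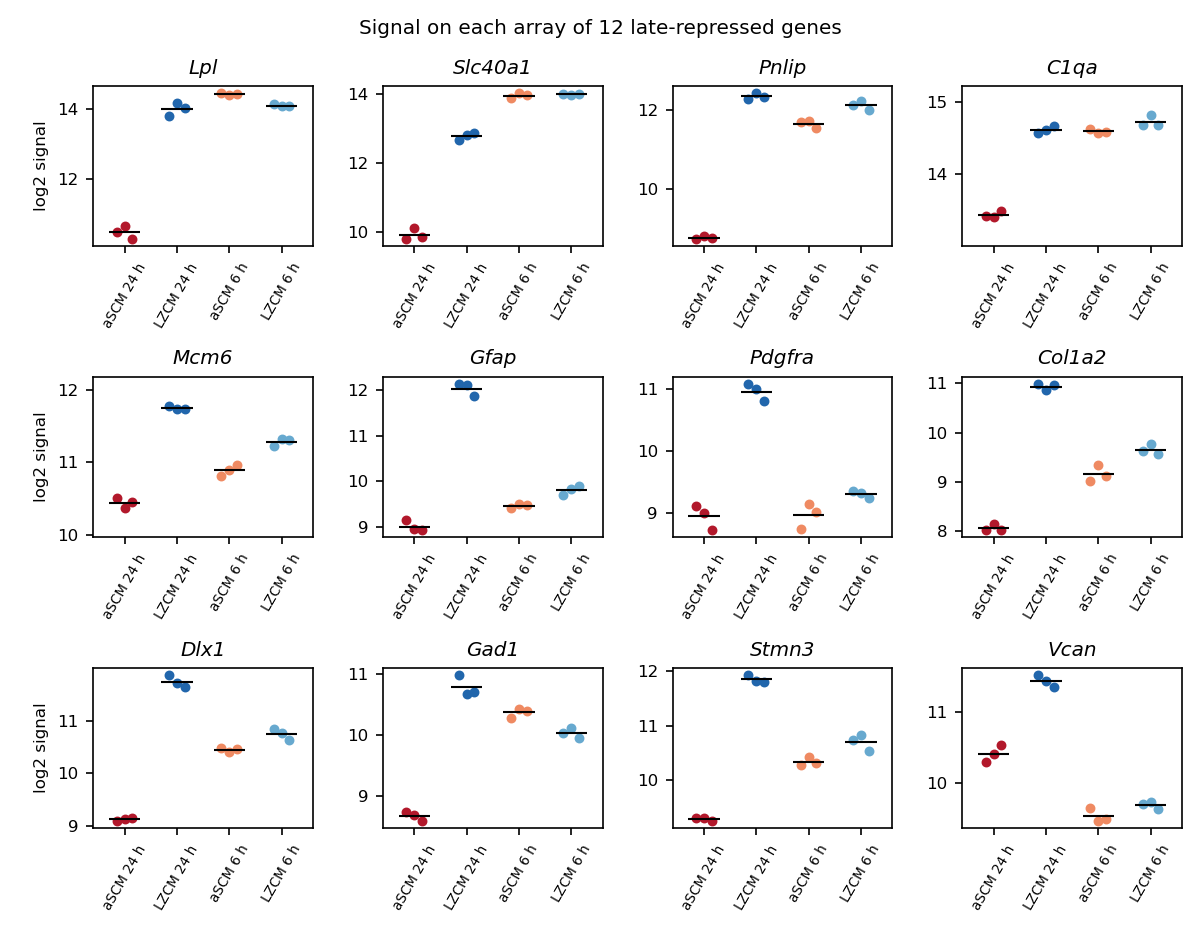
Log2 signal on each of the 12 arrays (points) and the mean of each group of 3 (line) for 12 late-repressed genes, 1 panel a gene, each with its own vertical range. In Lpl, Slc40a1 and C1qa the aSCM 24 h arrays stand below the other 9, in Pdgfra and Gfap the LZCM 24 h arrays stand above the other 9, and in Vcan both media are higher at 24 h than at 6 h.

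The promoters of 5 members, picked by hand, show the range of genes in the set, and 2 of them carry the E2F motif. That motif was in only 7 of 193 member promoters (3.63%), against 1.75% of those of the array's tested genes, and the difference was not tested. Each line gives the 250 bases before the annotated gene start, read 5′ to 3′ on the gene's strand from RefSeq (assembly GRCr8). Capitals mark matches to the 12 searched motifs. Slc40a1 encodes the iron exporter ferroportin (chr9:55543461-55543710, minus strand) and was lower over time in aSCM. Gfap encodes the intermediate filament of astrocytes (chr10:88361662-88361911, minus strand) and was higher over time in LZCM. Pdgfra encodes a growth factor receptor of oligodendrocyte progenitors and fibroblasts (chr14:33408517-33408766, minus strand). Cdca7 (chr3:77730065-77730314, plus strand) and Mcm7 (chr12:22163179-22163428, minus strand) are the cell cycle genes described above.
Slc40a1: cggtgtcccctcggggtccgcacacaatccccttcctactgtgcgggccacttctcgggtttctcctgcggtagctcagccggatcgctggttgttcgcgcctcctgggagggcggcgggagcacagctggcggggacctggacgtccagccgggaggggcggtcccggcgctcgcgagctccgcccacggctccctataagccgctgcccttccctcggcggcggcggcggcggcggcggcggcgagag
Gfap: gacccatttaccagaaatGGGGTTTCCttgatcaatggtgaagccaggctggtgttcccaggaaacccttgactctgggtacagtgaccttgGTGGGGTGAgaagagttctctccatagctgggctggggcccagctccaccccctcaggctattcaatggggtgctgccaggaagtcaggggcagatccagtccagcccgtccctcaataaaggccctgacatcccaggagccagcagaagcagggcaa
Pdgfra: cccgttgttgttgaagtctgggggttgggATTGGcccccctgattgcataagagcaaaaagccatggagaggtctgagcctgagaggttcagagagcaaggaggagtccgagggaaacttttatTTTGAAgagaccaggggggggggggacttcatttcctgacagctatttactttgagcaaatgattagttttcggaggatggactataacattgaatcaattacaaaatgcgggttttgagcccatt
Cdca7: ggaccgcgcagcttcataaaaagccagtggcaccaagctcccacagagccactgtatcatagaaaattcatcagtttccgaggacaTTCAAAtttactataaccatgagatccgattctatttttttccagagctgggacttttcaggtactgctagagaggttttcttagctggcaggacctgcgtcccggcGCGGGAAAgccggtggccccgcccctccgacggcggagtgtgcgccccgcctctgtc
Mcm7: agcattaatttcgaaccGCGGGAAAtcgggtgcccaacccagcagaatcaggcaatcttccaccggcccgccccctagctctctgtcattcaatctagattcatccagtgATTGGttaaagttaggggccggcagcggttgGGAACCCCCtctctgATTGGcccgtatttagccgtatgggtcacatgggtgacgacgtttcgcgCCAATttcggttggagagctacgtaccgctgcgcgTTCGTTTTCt

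Of the 244 named genes, 193 had a promoter in that table, each with 250 bases before and 50 bases after the gene start, and the first listed start of a gene was used. Motifs and GC content were read only in the 250 bases before the start. The E2F motif TTTCCCGC, searched on both strands as were all motifs, was in 3.63% of the member promoters (7 of 193). It was in 1.75% of promoters of genes with a tested probe and in 0.856% of all 27457 promoters. The 7 genes were Cdca7, Mcm7, Nup210, Tmem178a, Traf4, Zfp367 and Prtfdc1. E2F factors are known to drive genes of DNA replication, and among these genes Mcm7 is part of the replicative helicase. The match began 57 bases before the start in Cdca7 and 233 bases before it in Mcm7, in both as GCGGGAAA, the reverse complement.

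Among the other 11 motifs, CCAAT was in 31.6% of member promoters and 35.4% of those of tested genes. TTTGAA (the cell cycle homology region, CHR) was in 7.77% of members and 10.5% of tested genes, and TATAAA in 7.77% of members and 7.32% of tested genes. GGGNNTTCC (NF-kB) was in 4.66% of members and 5.95% of tested genes, and GAAANNGAA (interferon-stimulated response element, ISRE) in 7.25% of members and 6.43% of tested genes. CACGTG (E-box) was in 6.22% of members and 8.31% of tested genes, and TGACTCA (AP-1) in 3.63% of members and 3.24% of tested genes. TGACGTCA (CRE) was in 2.07% of members and 3.00% of tested genes, and GAGGAAGT (PU.1) in 1.55% of members and 2.26% of tested genes. TCACCCCAC (sterol response element) was in 0.518% of members and 0.321% of tested genes, and GTCTAGAC (SMAD box) in none of the members and 0.140% of tested genes. A CCAAT and a CHR match in Pdgfra, an NF-kB and a sterol match in Gfap, and the CHR match of Cdca7 are the other capitals in the first 4 sequences, while that of Slc40a1 held no match. Mcm7 held 3 CCAAT matches, 1 NF-kB match and 1 ISRE match beside its E2F motif, none of which overlap. The median GC content was 60.8% in member promoters, 59.6% in those of tested genes and 52.0% over all promoters. These are matches of letters only.

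Genes best known from neurons made up the largest group, with 22 probes for structure, synapse and secretion and 12 for transcription factors of neural development. Of the 22, 18 fell in aSCM and 21 rose in LZCM, with medians of -0.77 and 0.89. Stmn3, a regulator of microtubules, had 9.30, 9.30 and 9.26 in aSCM and 11.93, 11.83 and 11.80 in LZCM at 24 h. At 6 h it had 10.29, 10.42 and 10.31 in aSCM and 10.74, 10.83 and 10.54 in LZCM. The 2 media moved apart in both directions, with a fall of 1.05 in aSCM (limma adjusted p 6.9e-10) and a rise of 1.15 in LZCM (limma adjusted p 1.1e-09).

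Gad1, which makes the transmitter GABA, had 8.74, 8.68 and 8.59 in aSCM and 10.98, 10.67 and 10.71 in LZCM at 24 h, and 10.28, 10.43 and 10.40 in aSCM and 10.03, 10.12 and 9.94 in LZCM at 6 h, where aSCM was the higher. Gnao1, the alpha subunit of the neuronal G protein Go, was 6.10-fold lower in aSCM at 24 h. Gabbr2, a subunit of the GABA-B receptor, fell by 2.31 in aSCM with a change of -0.08 in LZCM, and was above background on 1 of 3 aSCM arrays at 24 h. Scg3, a granin of secretory granules, rose by 1.09 in LZCM and fell by 0.75 in aSCM. Tubb3, the neuronal beta-tubulin, rose by 0.97 in LZCM with a change of 0.11 in aSCM. Dclk2, a doublecortin-like kinase, had 2 member probes, with differences of -1.91 and -1.86.

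Among the 12 transcription factors 8 fell in aSCM and 11 rose in LZCM, with medians of -0.77 and 1.05. Dlx1, a homeobox factor of interneurons, had 9.10, 9.13 and 9.15 in aSCM and 11.86, 11.71 and 11.64 in LZCM at 24 h, and 10.47, 10.40 and 10.46 in aSCM and 10.83, 10.76 and 10.62 in LZCM at 6 h. Dbx2, a homeobox factor of the neural tube, rose by 1.91 in LZCM with a change of 0.09 in aSCM. It was above background on 1 of 3 aSCM arrays at each time, so its change in aSCM was read near background. Sox4 and Sox11, SOX factors of immature neurons, fell by 1.44 and 1.28 in aSCM. Pax6 and Emx2, factors of the developing cortex, rose by 1.02 and 1.08 in LZCM.

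Cell adhesion and axon guidance gave 20 probes, of which 15 fell in aSCM and 19 rose in LZCM, with medians of -0.67 and 0.90. Nrp1, neuropilin, a receptor of semaphorins and vascular growth factor, had 8.53, 8.61 and 8.65 in aSCM and 11.01, 11.21 and 11.20 in LZCM at 24 h. At 6 h it had 10.79, 10.60 and 10.64 in aSCM and 10.40, 10.63 and 10.35 in LZCM, so the media overlapped. It fell by 2.08 in aSCM, the largest fall of the group. Cadm1, an adhesion protein of synapses, fell in aSCM (-1.495) with a change of 0.06 in LZCM, while Astn1, astrotactin, rose by 1.39 in LZCM with a change of 0.06 in aSCM. Cx3cl1, a membrane-bound chemokine that neurons use to signal to microglia and counted in this group, rose by 1.25 in LZCM and fell by 0.68 in aSCM.

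Glial genes made up 15 probes for 14 genes. In LZCM 12 rose, with a median of 1.19, and in aSCM 9 fell, with a median of -0.45. Gfap had 9.14, 8.95 and 8.94 in aSCM and 12.12, 12.10 and 11.86 in LZCM at 24 h, and 9.41, 9.51 and 9.48 in aSCM and 9.70, 9.84 and 9.91 in LZCM at 6 h. Its 8.09-fold difference at 24 h went with the largest rise in LZCM of all members, 2.21 (SE 0.08, limma adjusted p 1.6e-12), beside a fall of 0.45 in aSCM. Gja1, the gap junction protein of astrocytes, rose by 1.25 in LZCM, and Atp1b2, a sodium pump subunit of astrocytes, by 1.71. Aldoc, the brain form of the glycolytic enzyme aldolase, rose by 1.495 in LZCM and fell by 0.53 in aSCM. Cspg5, a brain proteoglycan, rose in both media by 1 of its 2 member probes, by 2.13 in LZCM and 0.51 in aSCM. The second rose by 1.30 in LZCM, but its change of 0.14 in aSCM was not called (limma adjusted p 0.19).

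Genes of the oligodendrocyte lineage gave 5 members. Pdgfra, of the progenitors, had 9.12, 9.01 and 8.74 in aSCM and 11.07, 10.99 and 10.80 in LZCM at 24 h, and 8.75, 9.15 and 9.02 in aSCM and 9.36, 9.32 and 9.24 in LZCM at 6 h. It rose by 1.65 in LZCM with a change of -0.02 in aSCM (limma adjusted p 0.90), and Cspg4, the NG2 proteoglycan of progenitors, rose by 1.19 with a change of -0.01 in aSCM. Mbp, myelin basic protein, had 7.44, 7.35 and 7.39 in aSCM and 9.06, 9.64 and 9.23 in LZCM at 24 h, and 9.51, 9.43 and 9.34 in aSCM and 9.66, 9.93 and 9.88 in LZCM at 6 h. It fell in both media, by 2.03 in aSCM and 0.51 in LZCM, as did Enpp6, an enzyme of newly formed oligodendrocytes, by 1.68 in aSCM and 0.45 in LZCM. Enpp6 was not above background on any aSCM array at 24 h, so its fall in aSCM ends in background. Cnp, a myelin enzyme, fell by 0.71 in aSCM, and its change in LZCM was 0.22 (limma adjusted p 0.053).

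Matrix and contractile genes made up 16 probes, of which 15 rose in LZCM and 10 fell and 3 rose in aSCM, with medians of 1.34 in LZCM, the highest of the 10 groups, and -0.38 in aSCM. Tagln, transgelin of smooth muscle and fibroblasts, had 7.33, 7.09 and 7.20 in aSCM and 10.10, 10.27 and 10.27 in LZCM at 24 h, and 8.68, 8.69 and 8.73 in aSCM and 9.11, 8.98 and 9.17 in LZCM at 6 h. Col1a2, a chain of type I collagen, was 7.29-fold lower in aSCM at 24 h, with a fall of 1.09 in aSCM and a rise of 1.28 in LZCM. Fn1, fibronectin, rose by 1.53 in LZCM with a change of 0.05 in aSCM. Fstl1, a secreted glycoprotein, rose by 1.76 in LZCM and fell by 0.23 in aSCM. Vcan, the proteoglycan versican, rose in both media, by 1.75 in LZCM and by 0.88 in aSCM, the largest rise in aSCM among the members. Sparc, a matrix protein also made by resting microglia, was the exception, with a fall of 1.69 in aSCM and a change of -0.18 in LZCM.

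**Figure D4:**
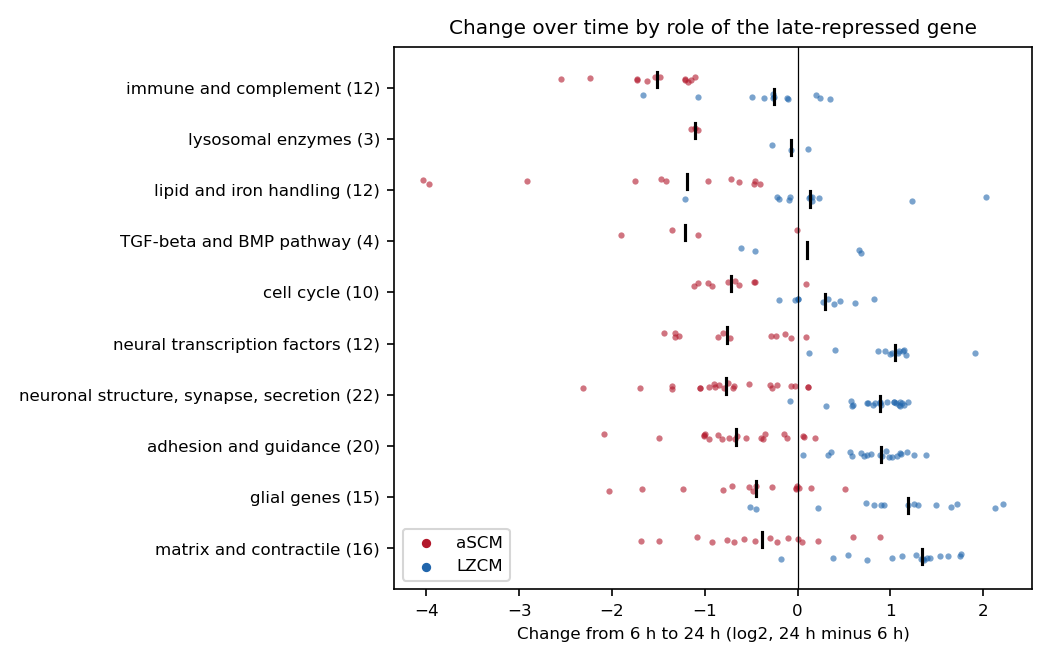
Points are late-repressed probes, placed by their log2 change (24 h minus 6 h) in aSCM (red) and in LZCM (blue), in 10 rows by gene role with the number of probes in brackets, and black bars are medians. Immune genes have medians of -1.51 in aSCM and -0.26 in LZCM, and matrix genes -0.38 and 1.34.

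Markers of other cell types were also counted, and since the rule itself made the members low in aSCM at 24 h, the lists are given without their members as well. Of 13 measured oligodendrocyte markers, 5 were members (Pdgfra, Mbp, Cspg4, Enpp6 and Cnp), and of the other 8, 7 were lower and 0 higher in aSCM at 24 h (29.2% and 30.8% of tested probes). At 6 h, 4 of these 8 were lower and 0 higher (32.2% and 25.9% of tested probes). Of 9 astrocyte markers, 3 were members (Gfap, Atp1b2 and Gja1), and of the 4 others tested, 3 were lower and 0 higher at 24 h and likewise at 6 h. Of 12 neuron markers, 2 were members (Gad1 and Tubb3), and of the 9 others tested, 5 were lower and 2 higher at 24 h, and 1 was lower and 3 higher at 6 h. Of 12 fibroblast markers, 4 were members (Tagln, Col1a2, Pdgfra and Fn1), and of the 3 others tested, 1 was lower and 1 higher at each time. None of 10 endothelial markers was a member, and of the 4 tested, 2 were higher at 24 h.

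Without its members, the oligodendrocyte list had a summed linear signal of 5924 to 6769 in aSCM and 39192 to 40195 in LZCM at 24 h, and 7564 to 8104 in aSCM and 14120 to 15539 in LZCM at 6 h. The astrocyte list without members had 1542 to 1620 in aSCM and 6849 to 7139 in LZCM at 24 h, and 1971 to 2099 in aSCM and 5349 to 5652 in LZCM at 6 h. In both, the LZCM arrays at 24 h stood above all others, and the media did not overlap at 6 h. The neuron list without members had 1927 to 1955 in aSCM and 4514 to 4742 in LZCM at 24 h, with overlap at 6 h (2762 to 2940 in aSCM and 2668 to 3014 in LZCM). The fibroblast list without members had 1083 to 1133 in aSCM and 1193 to 1213 in LZCM at 24 h, and 1174 to 1278 in aSCM and 1150 to 1271 in LZCM at 6 h. The 4 fibroblast members gave 86.6% of the LZCM sum at 24 h. Of the 8 fibroblast markers left, only 3 were tested, and the rest did not pass the filter on dim probes. Their sum is thus partly background and cannot show how far these markers differed between the media.

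With members, the sums at 24 h were 8756 to 9730 in aSCM and 47212 to 48318 in LZCM for oligodendrocyte markers, and 3880 to 3917 in aSCM and 16029 to 17481 in LZCM for astrocyte markers. For neuron markers they were 2637 to 2693 in aSCM and 6864 to 7436 in LZCM, and for fibroblast markers 2747 to 2764 in aSCM and 8932 to 9073 in LZCM. Members gave 17.2%, 57.9% and 34.8% of the LZCM sums of the oligodendrocyte, astrocyte and neuron lists. Endothelial markers went the other way, with 2386 to 2514 in aSCM and 1441 to 1513 in LZCM at 24 h. Of these 10 genes, 6 were above background on no aSCM array at 24 h and only 4 were tested, so their sum is partly background. The defining markers Aqp4 and Gjb6 of astrocytes, Col1a1, Col3a1, Lum, Postn and Thy1 of fibroblasts and Slc17a7 of neurons did not pass the filter on dim probes. The part of these cells in the late repression was not tested.

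**Figure D5:**
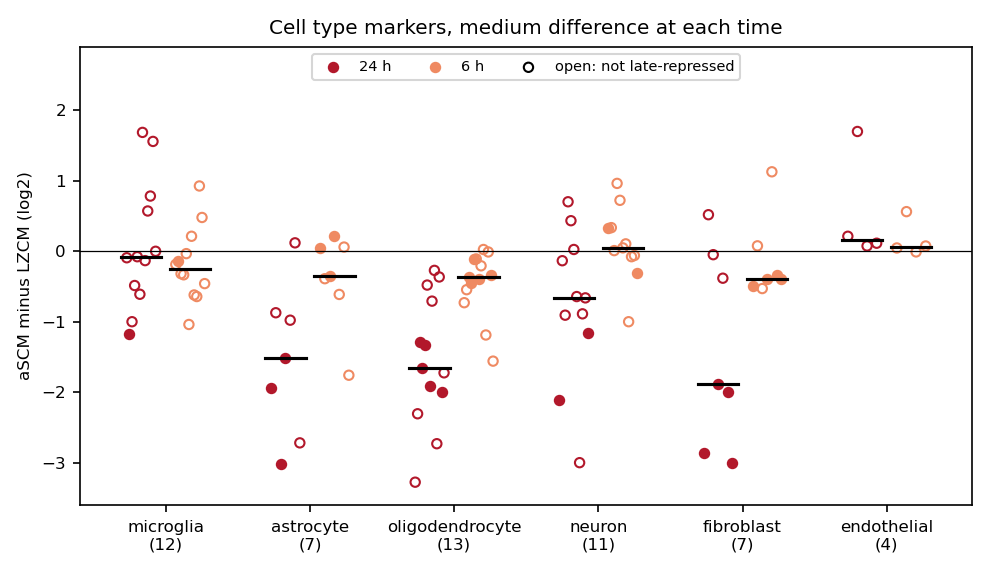
Points are the tested genes of 6 cell type marker lists, placed by their log2 difference between media (aSCM minus LZCM) at 24 h (dark red) and 6 h (orange), filled where late-repressed, with the number of genes in brackets and black bars for medians over all points, which include the members the rule placed at -1 or lower at 24 h. Over the open points alone the medians at 24 h are -0.92 for astrocyte, -1.22 for oligodendrocyte, -0.64 for neuron, -0.05 for fibroblast and -0.08 for microglial markers.

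Outside the role groups, Scrg1 and Gpx3 were among the genes with the largest changes. Scrg1, scrapie responsive gene 1, had 7.40, 7.60 and 7.54 in aSCM and 10.50, 10.49 and 10.54 in LZCM at 24 h, and 8.97, 9.06 and 9.12 in aSCM and 9.50, 9.38 and 9.37 in LZCM at 6 h. Gpx3, a secreted glutathione peroxidase, had 10.37, 10.29 and 10.34 in aSCM and 12.45, 12.43 and 12.42 in LZCM at 24 h, and 12.45, 12.52 and 12.83 in aSCM and 12.70, 12.66 and 12.64 in LZCM at 6 h. Gpx3 followed the pattern of Lpl, with a fall of 2.26 in aSCM and a smaller fall of 0.23 in LZCM, while Scrg1 fell by 1.53 in aSCM and rose by 1.09 in LZCM. Pfkm, the muscle form of phosphofructokinase, rose in both media, by 1.21 in LZCM and 0.26 in aSCM, and with Aldoc was a member among 19 measured genes of glycolysis, of which 3 were lower and 16 higher in aSCM at 24 h. The 91 probes without a gene name had medians of -0.89 in aSCM and 0.60 in LZCM over time, and 74 of them fell in aSCM and 67 rose in LZCM.

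The choice of members was repeated with 1 replicate number of every group left out, and the left-out arrays were then read. The rule on 2 arrays a group chose 341, 333 and 353 probes, and on the arrays left out their median difference at 24 h was -1.34, -1.45 and -1.28. All chosen probes were below 0 there, and 86.8%, 94.9% and 81.6% were at -1 or lower. Both criteria held on the left-out arrays for 76%, 83.8% and 68.8%. The left-out arrays had been normalized together with the others and may be technical repeats, so this reading covers only repeatability between arrays. Other probes of member genes were few, with 7 for 6 genes, of which 5 were below 0 at 24 h and 4 passed the filter on dim probes. The second probe of Qprt, an enzyme of NAD synthesis, was at -1.88 at 24 h and already at -0.63 at 6 h, outside the limit for late repression. That of Cdca7 was at -0.90 at 24 h and 0.09 at 6 h, that of Pltp at -0.60 and -0.39, and that of Ctnna2, a catenin, at -0.30 and -0.10. The second probe of Astn1 read 0.02 and was not above background in LZCM at 24 h.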

How the data were processed

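The authors deposited a table of log2 signals of 22523 probes on 12 arrays, not normalized between arrays per the file name, and a second table of log2 values already quantile normalized. The log base was taken from the values. The submitters' processing notes name R 2.9.1. For scanning, background and bead summaries the software is not given in the sources used here. The deposited log2 values were quantile normalized here over all 12 arrays with limma 3.58.1 in R 4.3.3, without background correction, which understates the fold changes of dim probes. Background per array was modelled as a normal distribution around the mode of its signals, and a probe above it at a one-sided p under 0.05 counted as above background. Where a probe was not above background on any aSCM array at 24 h, its fold is a lower bound. Probes above background on at least 3 arrays were tested, 12351 in all. The functions lmFit and eBayes, over 4 group means (8 residual and 9.38 prior degrees of freedom) gave the contrasts between times and media, with Benjamini-Hochberg adjustment within a contrast. The median standard error of a difference was 0.076, and the number of arrays limits the precision.

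Samples were grouped by their titles. Gene names came from GEO's platform annotation, which lists 13793 of the probes with 1 gene each and can be old, and 13752 were updated through Entrez identifiers in the RefSeq table of GRCr8. The 8730 other probes are unnamed here. The members, gene lists, marker lists and motifs were chosen with earlier results of these data known. Named genes were the 12 members with the lowest 24 h difference, the 6 with the largest fall in aSCM and the 6 with the largest rise in LZCM, at most 4 members of each gene list and those beside the thresholds. All other genes were named after their values were seen, as was each role group. The procedure was tested on simulated data. Alternatives covered background correction, normalization, the table used, the filter, the arrays fitted, the replicate number as a block, the variance model and each array left out.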

Additional observations from a re-analysis of the deposited data

Results flagged for a closer look

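Some genes of the marker and other gene lists that are not late-repressed were picked by hand after their values were seen. For these, limma's interaction test was read, which asks if the difference between media (aSCM minus LZCM) changed between 24 h and 6 h. Of the 10 picked, Apoe (change -0.04, limma adjusted p 0.76) and Aif1 (0.09, limma adjusted p 0.38) did not pass, and those that passed follow. The share of all tested probes that passed is not given here, so how unusual these genes are cannot be judged. Bcas1, of oligodendrocytes, differed by -3.28 at 24 h and -0.73 at 6 h, a change of -2.55 with an adjusted p of 1.6e-12. Stmn2, of neurons, differed by -2.999 and -0.9987, a change of -2. Olig1, a factor of the oligodendrocyte lineage, differed by -2.73 and -1.19, a change of -1.54, and Slc1a3, the glutamate transporter of astrocytes, by -2.72 and -1.76, a change of -0.96. Trem2, a lipid receptor of microglia, differed by -2.24 and -0.74, a change of -1.5, and C1qb by -0.9987 and -0.32, a change of -0.68. Itgam, an integrin of microglia, went the other way with 1.69 and 0.21, a change of 1.47, as did Spi1, the factor PU.1, with 1.56 and 0.48, a change of 1.08 (adjusted p 2.2e-05). The late-repressed probes were chosen by limits on both differences, which force their interaction to -0.5 or lower, so none of them is listed here. Groups of 3 arrays were not searched for outlying samples.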

How the results depend on the processing

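With the rule applied to other versions of the values, the number of late-repressed probes was 311 with 75th percentile scaling, 332 without normalization, 336 in the authors' normalized table, 375 with cyclic loess and 493 with normexp background correction, against 338. Of the 338, 292, 231, 325, 331 and 298 were chosen again. The median change of the 338 was -0.825 in aSCM and 0.831 in LZCM with normexp and -0.742 and 0.564 without normalization, against -0.677 and 0.735; the other 3 versions moved them by less than the spread between replicates. Over the alternatives that tested all 338, 242 to 278 were called lower over time in aSCM and 212 to 268 higher in LZCM. The filter for signal above background on all 12 arrays left 290 of them, of which 227 were lower in aSCM and 229 higher in LZCM. Leaving out each array in turn gave 331 to 359 probes, 252 to 265 called lower in aSCM, 257 to 268 higher in LZCM, and medians of -0.68 to -0.651 in aSCM and 0.703 to 0.738 in LZCM. The 24 h differences of 130 named member genes stayed below 0 in all 5 versions (-3.811 to -0.7716), 179 of those 650 values moving by more than the spread between replicates. Scaling to the 75th percentile moved the median of all tested probes to 0.13 at 24 h and 0.10 at 6 h. With the replicate number as a block, 264 were called lower in aSCM and 267 higher in LZCM. Deviations of same-numbered samples correlated at -0.12 to 0.29, above 0.1 in 6 of 18 pairs. The mean was 0.072, against -0.036 for samples of different numbers in different groups. Whether samples of the same number share a batch or preparation is not told by the labels and was not tested. The filter on dim probes limits calls near background.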
